A study of Bos taurus with 38 samples.

Results

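Cumulus expansion genes are the small group of genes through which the cumulus cells around an oocyte build an elastic, hyaluronan-rich matrix before ovulation. The group was fixed by name as HAS2, PTX3, TNFAIP6, PTGS2, AREG, EREG, VCAN and CD44, a choice of names that applied no threshold to measured values. The count tables carry gene identifiers without symbols, and the names used here came from tables that pair a symbol with 5126 of the 27607 identifiers. VCAN (ENSBTAG00000014906) was the 1 gene of the 8 that could be matched in this way. Its symbol came from the study's co-expressed pairs of oocyte and cumulus genes, found in part of these complexes. The match therefore did rest on measured values. The other 7 genes were not analysed here. The account below is therefore one of VCAN, set beside the named genes of the pathways that surround it.

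The libraries came from 19 cattle cumulus-oocyte complexes, each split into 1 library of the single oocyte and 1 of its own cumulus cells, 38 libraries in all. The complexes were aspirated from antral follicles of abattoir ovaries, had compact cumulus layers and were exposed to brilliant cresyl blue (BCB). This dye is kept by oocytes that have finished growing (BCB+) and decoloured by glucose-6-phosphate dehydrogenase in oocytes that are still growing (BCB-). There were 9 BCB+ and 10 BCB- complexes, which gave 9 BCB+ cumulus libraries, 10 BCB- cumulus libraries, 9 BCB+ oocyte libraries and 10 BCB- oocyte libraries. All complexes met the dye, and RNA was taken without in vitro maturation, so that no group contained complexes with an expanded cumulus. The class was read from the oocyte's colour, and the cumulus cells carry the class of their oocyte.

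In the follicle, the preovulatory surge of luteinizing hormone makes mural granulosa cells release the EGF-like ligands amphiregulin (AREG) and epiregulin (EREG), which act on EGF receptors of the cumulus cells. The cumulus cells then raise hyaluronan synthase 2 (HAS2), prostaglandin synthase 2 (PTGS2) and the hyaluronan cross-linking proteins TNFAIP6 and PTX3, while CD44 serves as a hyaluronan receptor and oocyte factors of the TGF-beta family enable the response. VCAN encodes versican, a large chondroitin sulfate proteoglycan that binds hyaluronan and whose core protein is cut by proteases of the ADAMTS family when the matrix is remodelled.

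Library totals, which set the precision of every value, ran from 3585944 to 10430148 counts in BCB+ cumulus cells and from 1103200 to 8013318 in BCB- cumulus cells. The complex numbers fall into 3 runs, 6 to 24 (3 BCB+, 1 BCB-), 65 to 74 (6 BCB+, 3 BCB-) and 86 to 91 (0 BCB+, 6 BCB-), and complexes 86 to 91, being of 1 class only, allow no separation of run from class, so that these cannot be told apart there. The labels do not say what a run stands for. The 13 mitochondrial protein-coding genes took 0.966 to 2.86% of the counts in BCB+ cumulus cells and 1.17 to 17.4% in BCB- cumulus cells. The labelled compartments were checked on marker genes. Of 12 cumulus and granulosa markers 10 were matched, and all 10 were higher in cumulus cells than in oocytes (edgeR quasi-likelihood test, FDR under 0.01), while the 3 matched oocyte markers ZP2, ZP3 and DAZL were all lower. Summed over those 3 oocyte markers, the cumulus libraries held 0.108 to 1.82 CPM (counts per 1000000 counts of the library) in BCB+ and 0.661 to 66.5 CPM in BCB-, with complexes 66 (66.5 CPM) and 68 (49.9 CPM) far above the rest. Means of markers of other cell types, in TMM-scaled CPM, had SDs above the mean in BCB- cumulus cells. The stromal marker COL1A2 averaged 0.303 in BCB+ and 6.01 (SD 10.8) in BCB- cumulus cells. The endothelial markers averaged 2.25 and 5.28 (SD 9.21) for VWF and 0.572 and 3.77 (SD 5.40) for TEK. The erythroid marker HBA averaged 88.7 (SD 157.6) and 68.97 (SD 78.98). Per library total, the BCB+ and BCB- medians were 0.342 and 1.34 CPM for COL1A2 and 2.08 and 1.46 for VWF. They were 0.657 and 1.72 for TEK and 17.1 and 30.15 for HBA. VWF and HBA were not called between classes (edgeR adjusted p = 0.5525 and 0.8625), and COL1A2 and TEK were below the filter. COL1A2, VWF and TEK were higher in oocytes, with means of 10.5, 50.9 and 79.3 CPM. None of the 7 immune markers was matched, and the part of other cells in the BCB differences below was not tested.

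VCAN transcripts were abundant in every cumulus library of these unmatured complexes. The reads assigned to VCAN numbered 1621 to 44359 per cumulus library, which puts the counting error between 0.475 and 2.48% of the value. Per library total, VCAN stood in the BCB+ cumulus cells at a lowest value of 2846 CPM (complex 71), a median of 3404 CPM and a highest value of 4366 CPM (complex 74). The BCB- cumulus cells ran from 1469 CPM (complex 68) over a median of 2876 CPM to 5536 CPM (complex 89). The BCB- libraries thus held both the lowest and the highest VCAN share, and the BCB+ libraries lay inside their range.

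The scaling of the libraries bears on the comparison of these levels. The trimmed mean of M-values (TMM) sets libraries to a common level by their middle genes. Its factors were 1.09 to 1.27 in BCB+ and 0.542 to 1.16 in BCB- cumulus cells. After TMM scaling, VCAN had a lowest value of 2274, a median of 2783 and a highest value of 3823 CPM in BCB+ cumulus cells, with a mean of 2974 ± 520.7 (SD, n = 9). In BCB- cumulus cells the lowest value was 2749, the median 3309 and the highest 5033 CPM, with a mean of 3685 ± 812.9 (SD, n = 10). The groups overlapped, with the 4 highest libraries being BCB- (complexes 87, 89, 88 and 6) and the 4 lowest being BCB+ (complexes 71, 70, 73 and 69).

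**Figure D1:**
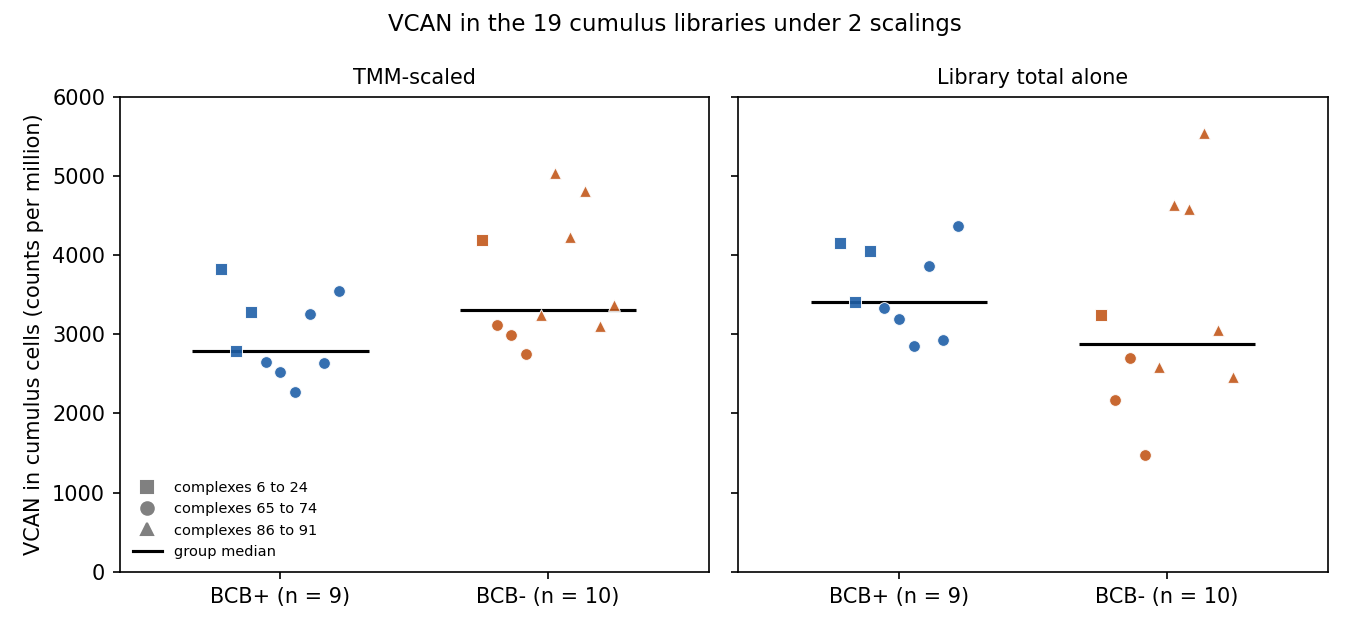
VCAN in each cumulus library, in CPM on a linear axis from 0, after TMM scaling (left) and per library total alone (right). Each symbol is 1 library, its shape gives the run of complex numbers and the black line is the group median. The BCB+ median is below the BCB- median on the left (2783 against 3309 CPM) and above it on the right (3404 against 2876 CPM).

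Whether VCAN differed between cumulus cells of BCB+ and BCB- oocytes was tested with edgeR's quasi-likelihood test over 12313 genes. The fitted log2 fold change of BCB+ over BCB- was -0.31 (SE 0.14, 95% interval -0.61 to -0.01), a level 0.807 times that in BCB-. The unadjusted p was 0.0416, a value under 0.05 that 18.7% of all genes tested also had, and the adjusted p was 0.247 in this edgeR fit. VCAN was therefore not called at an FDR of 0.01, a threshold passed by 69 genes, or 0.56% of those tested (0.52% lower and 0.0406% higher in BCB+). This count was not stable, at 6 to 160 genes when 1 library was left out and at 1704, of which 1601 were higher, with library totals alone. The interval covers a BCB+ level from 0.657 to 0.991 times the BCB- level.

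The direction of the VCAN difference turned with the scaling. With library totals alone the log2 fold change was 0.14 (edgeR adjusted p = 0.604). Under that scaling the median of all genes also stood 0.52 higher in BCB+ on the log2 scale, against 0.03 after TMM, so that VCAN lay below the median gene in both. In bulk cumulus samples, fewer cells of a kind and less RNA per cell cannot be told apart.

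Within the run 65 to 74, the largest run with both classes, the VCAN levels of the classes overlapped. The 6 BCB+ libraries ran from 2274 to 3542 TMM-scaled CPM with a median of 2644, and the 3 BCB- libraries stood at 2749, 2992 and 3112. The difference of means on the log2(CPM + 1) scale was -0.08 (two-sided exact permutation test, p = 0.595, 84 splits, smallest possible p 0.0119). With library totals alone, the same difference was 0.72 and its exact permutation p was 0.0119, while the median of all genes moved by 0.81 in this run. The highest VCAN levels lay outside this run: the 6 BCB- libraries of the run 86 to 91 had a median of 3801 and a range of 3107 to 5033 TMM-scaled CPM, and complex 6 stood at 4194. With the run as a covariate the log2 fold change was -0.15, and with the log10 library total as a covariate it was -0.43. Neither fit called VCAN.

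**Figure D2:**
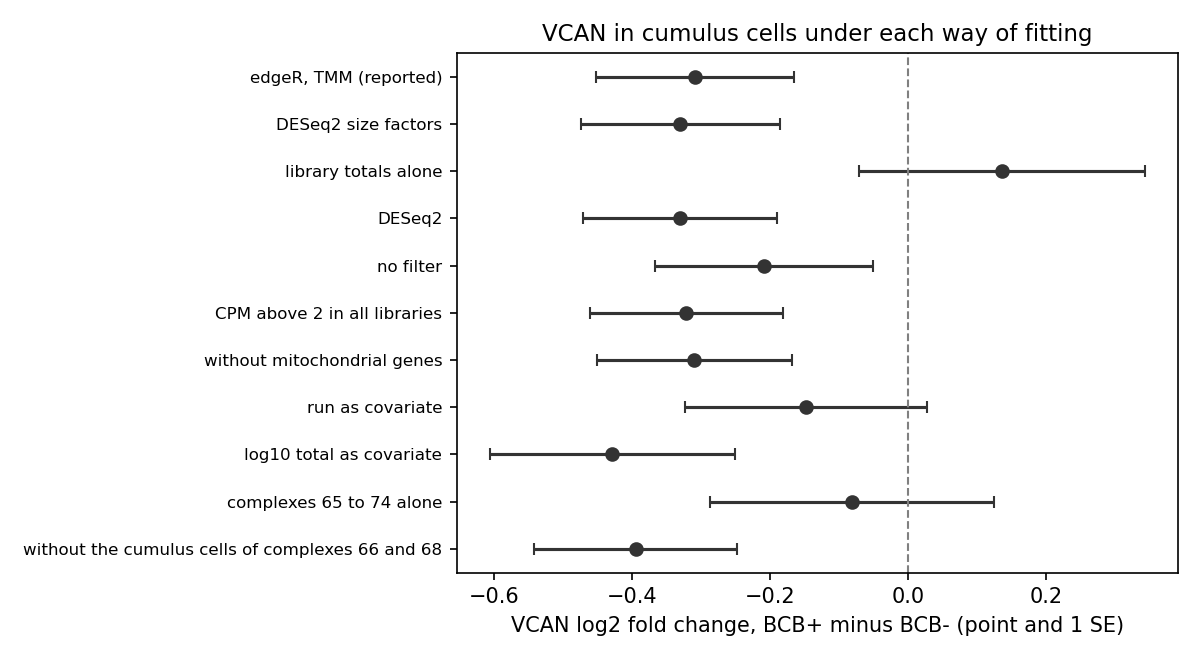
VCAN log2 fold change (BCB+ minus BCB-) in cumulus cells under each way of fitting; points are estimates, bars are 1 standard error, and the dashed line marks no difference. The estimate is -0.31 in the reported fit, -0.08 among complexes 65 to 74 alone, -0.43 with the log10 total as a covariate and 0.14 with library totals alone.

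The VCAN level in cumulus cells was set against 3 measures of the cumulus libraries, and no relation over all complexes passed. Against the log10 library total, Pearson's r was -0.12 and Spearman's rho -0.16 (n = 19, permutation p = 0.613 and 0.512). With the 2 most extreme library totals left out, r was -0.31. Within BCB+ cumulus cells r was -0.51 and within BCB- it was 0.69 (exact permutation p = 0.158 for BCB+, permutation p = 0.0304 for BCB-). The same r was -0.27 in the run 65 to 74 and 0.59 in the run 86 to 91. Against the mitochondrial share, r was -0.0062 over all complexes and -0.68 within BCB- (permutation p = 0.98 and 0.032), and rho over all complexes was 0.0596. Against the summed cumulus markers, r was -0.31 and rho -0.14 over all complexes (permutation p = 0.192 and 0.555), 0.66 within BCB+ and -0.70 within BCB-. With the 2 most extreme values of the measure left out, the sign turned for the markers (r = 0.097, rho = 0.16) and for the mitochondrial share (r = 0.15). After adjustment over the 5 relations computed, the permutation p of these 3 was 0.48 or higher for r, and whether the classes differ in these coefficients was not tested.

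Among genes with a symbol, SMARCA1, a chromatin remodelling ATPase, had a pattern across the 19 cumulus libraries much like that of VCAN, with a Spearman coefficient of 0.79. Among the 12312 other genes compared, 5 reached a coefficient of at least 0.8 and 6 a coefficient of at most -0.8. Such coefficients are descriptions over 19 libraries that share TMM scaling.

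VCAN was a cumulus transcript in every complex. The oocyte libraries held 394 to 7290 VCAN counts, with a counting error of 1.17 to 5.04%. In BCB+ oocytes the lowest value was 35.3 CPM (complex 73), the median 66.2 CPM and the highest 300.5 CPM (complex 72). In BCB- oocytes these were 29.1 CPM (complex 6), 45.5 CPM and 199.8 CPM (complex 88). No oocyte library reached the level of any cumulus library, and the share of the cumulus level found in the own oocyte was 0.878 to 7.77%, with a median of 1.90%.

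Over all 38 libraries the log2 fold change of cumulus cells over oocytes was 5.86 (SE 0.28, 95% interval 5.29 to 6.43, edgeR adjusted p = 9.87e-22), a 58.0-fold higher level with an interval of 39.0 to 86.2. A difference between the compartments was common, since 88.4% of the 14898 genes tested were called with 42.2% higher and 46.2% lower in cumulus cells. The estimate was 5.48 in BCB+ complexes alone and 6.23 in BCB- complexes alone. The test of that difference, an interaction, gave -0.76 (SE 0.46, edgeR adjusted p = 0.414), and 1.73% of genes passed it (1.68% with a negative and 0.047% with a positive value).

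**Figure D3:**
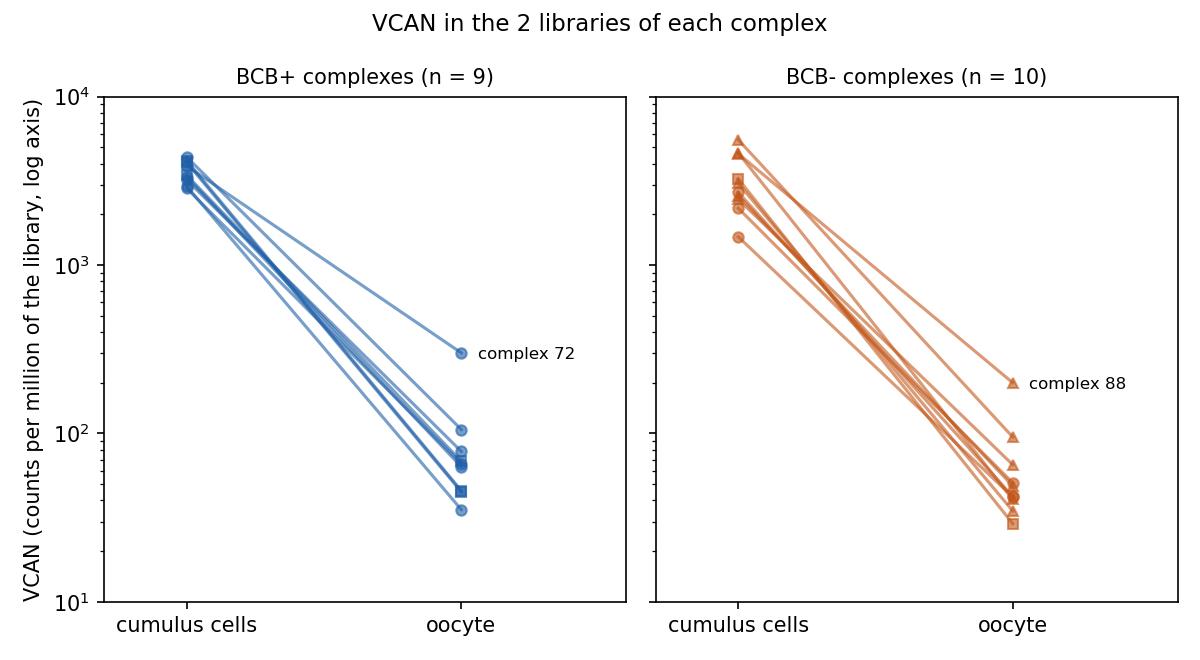
VCAN in the cumulus and oocyte libraries of each complex, in CPM of the library on a log axis, for BCB+ (left) and BCB- (right) complexes. Lines join the libraries of 1 complex, and all 19 fall from cumulus cells to oocyte, with complexes 72 and 88 ending highest, at 300.5 and 199.8 CPM.

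Between BCB+ and BCB- oocytes the VCAN log2 fold change was 0.47 (SE 0.41, 95% interval -0.38 to 1.32, edgeR adjusted p = 0.917). The value rested on complex 72, without which it was -0.02, and without complex 88 it was 0.85. With the run as a covariate it was 1.10 (unadjusted p = 0.0452, edgeR adjusted p = 0.403), and in the run 65 to 74 alone 1.21 (edgeR adjusted p = 0.31). No gene of the 12753 tested in oocytes passed an FDR of 0.01 with edgeR (0%), while 711 (5.58%) had an unadjusted p under 0.05 and DESeq2 called 1. Within the run 65 to 74 the difference in oocytes was 0.84 on the log2(CPM + 1) scale (two-sided exact permutation test, p = 0.202) and 0.49 without complex 72 (exact permutation p = 0.196).

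VCAN in the oocyte libraries rose and fell with a sum of genes that mark cumulus and granulosa cells. The sum leaned on SERPINE2, which had a median of 90.2 CPM in oocytes, where the sum had a median of 137.7 CPM. The relation to each marker alone was not tested. Against the summed level of the 10 matched markers in the same oocyte library, r was 0.89 and rho 0.64 (n = 19, permutation p = 1e-05, the smallest that 100000 permutations can give, and 0.00408; adjusted over 5 relations 5e-05 and 0.0204). Without the 2 complexes farthest from the median r was 0.68, and it was 0.90 within BCB+, 0.89 within BCB-, 0.95 in the run 65 to 74 and 0.92 in the run 86 to 91. Spearman's coefficient within BCB- was 0.25, so that the relation there rested on few oocytes. Against VCAN in the own cumulus cells, the oocyte level had an r of 0.10 and a rho of 0.06 (permutation p = 0.693 and 0.798).

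**Figure D4:**
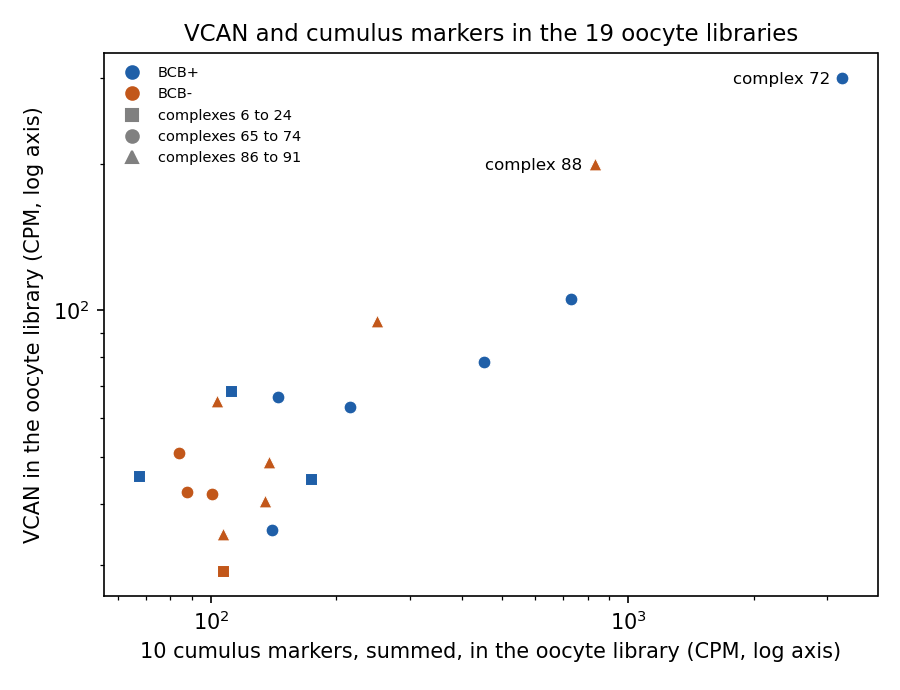
VCAN against the sum of 10 cumulus and granulosa markers in the 19 oocyte libraries, both in CPM on log axes. Colours give the BCB class and shapes the run of complex numbers; complexes 72 and 88 are highest on both axes.

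The mean VCAN level in oocytes was 2.26% of the mean in cumulus cells. The 10 markers, each taken in the same way, lay between 1.54% for FSHR, the follicle-stimulating hormone receptor, and 5.53% for CYP19A1, aromatase, and 4 of the 10 lay above VCAN. Without complexes 72 and 88 the share was 1.70% for VCAN and 0.484 to 4.88% for the markers, of which 3 lay above VCAN. By the median over complexes, single markers ran from 0.152% for INHA to 4.81% for CYP19A1. VCAN stood at 1.90% by that measure, with 3 markers above it. Per complex, the oocyte's share of the cumulus level was higher for VCAN than for the summed markers in 13 of 19 complexes, with medians of 1.90% and 1.03%. In complex 72 the oocyte held 7.77% of the cumulus level of VCAN and 9.73% of that of the summed markers, and in complex 88 these were 4.37% and 4.64%. The part that adhering cumulus cells or their RNA had in the oocyte values was not tested.

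Around VCAN, 26 genes of matrix synthesis and turnover were listed, of which 9 were matched and 7 could be tested in cumulus cells. None of the 7 passed the threshold between BCB classes, which only 0.56% of all genes tested passed. Their median log2 fold change was -0.11, against -0.01 for all genes tested. Which pathway genes carry a name here depends in part on results in these same samples, so that such counts describe the named genes only. ADAMTS5, HYAL2, HBEGF, ERBB4 and BMPR1B, for example, were named only through the study's BCB comparison of these cumulus libraries.

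ADAMTS5, a protease that cleaves versican and aggrecan, had the lowest p among them. In BCB+ cumulus cells it had a lowest value of 0.908, a median of 3.97 and a highest value of 9.77 TMM-scaled CPM, and in BCB- cumulus cells these were 1.52, 30.0 and 123.8. The groups overlapped over all complexes and lay apart within the run 65 to 74, at 0.908 to 5.14 in BCB+ and 41.6 to 123.8 in BCB-. The log2 fold change was -3.13 (SE 0.65, edgeR adjusted p = 0.0136), short of the threshold of 0.01. Within the run 65 to 74 it was -4.91 (edgeR adjusted p = 0.000469). With the log10 library total as a covariate it was -0.44 (edgeR adjusted p = 0.696). In that run the BCB- cumulus libraries held 1103200 to 1650795 counts and the BCB+ cumulus libraries 4386946 to 10430148. ADAMTS5 averaged 0.610 CPM in oocytes, below the filter there, against 16.3 CPM in cumulus cells.

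The other versican-cleaving proteases with a name were ADAMTS9 and ADAMTS4, named here after their values were seen. ADAMTS9 was higher in cumulus cells than in oocytes by a log2 fold change of 2.56 and differed by -0.11 between BCB classes of cumulus cells (edgeR adjusted p = 0.821). ADAMTS4 was an oocyte transcript here, with a mean of 98.6 CPM in oocytes and 0.719 CPM in cumulus cells, where 10 of 19 libraries held no count. HYAL2, a hyaluronidase, had a median of 34.7 TMM-scaled CPM in BCB+ and 22.6 in BCB- cumulus cells, a log2 fold change of 0.62 that did not pass (edgeR adjusted p = 0.189). Between compartments, 4 of the 9 matched matrix genes were higher in cumulus cells (HYAL1, HYAL2, ADAMTS5 and ADAMTS9) and 5 were lower (HAS3, UGP2, GFPT1, CEMIP2 and ADAMTS4), HAS3 being a hyaluronan synthase and UGP2 and GFPT1 enzymes on the way to its sugar precursors. Over all genes 42.2% were higher and 46.2% lower, shares near those of the matrix genes.

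**Figure D5:**
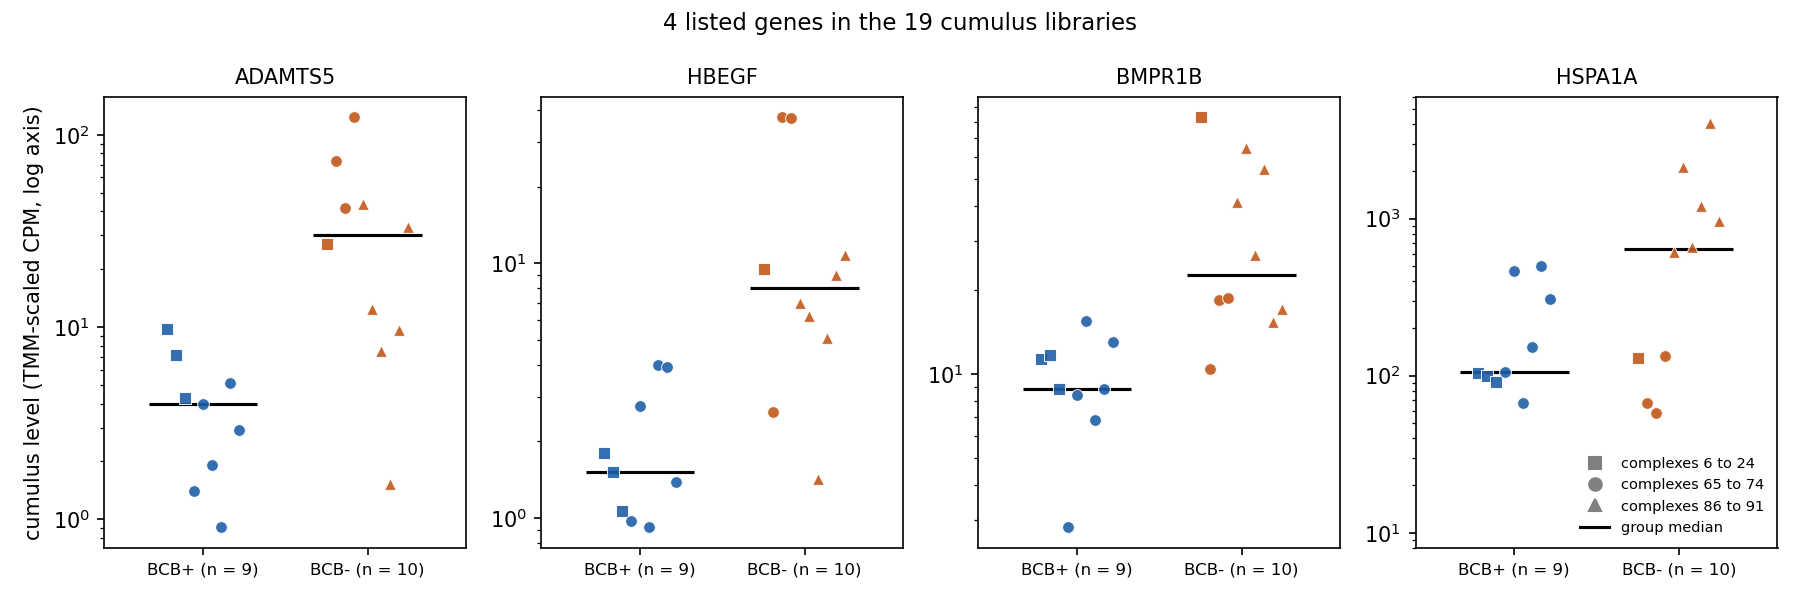
ADAMTS5, HBEGF, BMPR1B and HSPA1A in the 19 cumulus libraries, in TMM-scaled CPM on log axes. Symbols are libraries, their shapes give the run of complex numbers, and black lines are group medians. The BCB- median is above the BCB+ median for each of the 4 genes, and the high HSPA1A values belong to complexes 86 to 91.

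In the EGF receptor network, 16 genes were listed and 7 matched. None of the 7 passed between BCB classes of cumulus cells, where only 0.56% of all genes tested passed. EGFR, the receptor through which AREG and EREG act, was named after its values were seen. It was higher in cumulus cells than in oocytes by a log2 fold change of 3.40 and had medians of 213.3 (BCB+) and 183.4 (BCB-) TMM-scaled CPM in cumulus cells (log2 fold change 0.24, edgeR adjusted p = 0.408). ERBB4, another receptor of the family, had medians of 1.94 in BCB+ and 6.66 in BCB- cumulus cells (log2 fold change -1.55, edgeR adjusted p = 0.0631).

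HBEGF, the heparin-binding EGF-like ligand, was mainly an oocyte transcript, with a mean of 656.2 CPM in oocytes and 6.32 CPM in cumulus cells. Its cumulus level had a median of 1.51 (range 0.919 to 3.996) TMM-scaled CPM in BCB+ and of 7.99 (range 1.43 to 37.5) in BCB-. The highest 2 were complexes 66 and 68, the same cumulus libraries that held most of the oocyte markers. The log2 fold change was -2.51 (SE 0.53, edgeR adjusted p = 0.0128), and without complexes 66 and 68 it was -1.64 (edgeR adjusted p = 0.0351). With the log10 library total as a covariate it was -1.33 (edgeR adjusted p = 0.448). With the run as a covariate it was -3.29 (edgeR adjusted p = 0.00154), which passed. In the run 65 to 74 alone it was -3.49 (edgeR adjusted p = 0.0205). Whether oocyte RNA had a part in the HBEGF difference was not tested.

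For the oocyte-derived ligands of the TGF-beta family, their receptors, signal mediators and antagonists and SERPINE2, a protease inhibitor of cumulus cells, 14 genes were listed and 5 matched (BMPR1B, SMAD4, GREM1, FST and SERPINE2). Of these, 1 passed, lower in BCB+, as did 0.52% of all genes tested and 40 of the 4647 tested genes with a symbol. That gene, BMPR1B, was named only through the study's BCB comparison of these same cumulus libraries. Its call here is therefore no separate support. BMPR1B, a type I receptor for bone morphogenetic proteins, was lower in BCB+ than in BCB- cumulus cells, with values of 2.82 (lowest), 8.85 (median) and 15.5 (highest) against 10.4, 22.7 and 83.2 TMM-scaled CPM. The log2 fold change was -1.88 (SE 0.37, edgeR adjusted p = 0.00822), and the ranges overlapped. The call held in 4 of the 19 fits that left out 1 library (BCB- complexes 66, 88, 89 and 90), and the adjusted p over the 19 fits ran from 0.00573 to 0.0217. Within the run 65 to 74 the log2 fold change was -0.78 (edgeR adjusted p = 0.457). Without complexes 66 and 68 it was -2.03 (edgeR adjusted p = 0.0114), with the run as a covariate -1.59 (0.07) and with the log10 library total as a covariate -2.01 (0.103), none of which passed. BMPR1B was lower in cumulus cells than in oocytes (log2 fold change -2.93). Its cumulus level was highest in complexes 6, 87 and 89, at 83.2, 64.6 and 54.0 TMM-scaled CPM, where the summed oocyte markers were 3.39, 0.778 and 2.62 CPM. In complexes 66 and 68, where these markers were highest, BMPR1B stood at 18.4 and 18.7. The part of oocyte RNA in the BMPR1B difference was not tested. GREM1, an antagonist of these ligands, had medians of 13.4 in BCB+ and 22.4 in BCB- cumulus cells (log2 fold change -0.81, edgeR adjusted p = 0.40).

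The BCB differences of HBEGF and BMPR1B, which passed the filter in both compartments, were more negative in cumulus cells than in oocytes. The interaction was -2.32 (edgeR adjusted p = 0.0046) for HBEGF and -1.83 (0.00192) for BMPR1B, where 1.73% of all genes were called. With the complex as a replicate block, which uses the pairing of each oocyte with its own cumulus cells, the adjusted p from edgeR was 0.0667 and 0.0654, and the genes called fell from 258 to 2.

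For the gonadotropin and cyclic AMP genes, which carry the hormone signal that starts expansion, 19 were listed and 10 were matched. None of the 10 passed between BCB classes of cumulus cells, as against 0.56% of all genes tested. ADCY6, an adenylate cyclase, had a median of 52.3 TMM-scaled CPM in BCB+ and 38.8 in BCB- cumulus cells (log2 fold change 0.54, edgeR adjusted p = 0.0895). FSHR had medians of 293.0 and 231.9 (log2 fold change 0.37, edgeR adjusted p = 0.178). Of the 10, 8 were higher in cumulus cells than in oocytes, as were 42.2% of all genes. With library totals alone, ADCY6 and FSHR passed between BCB classes, with log2 fold changes of 1.03 and 0.82 that lie above the shift of the median gene, but 13.8% of all genes were called under that scaling, nearly all of them higher in BCB+ (1601 of 1704).

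Genes that answer handling and stress within minutes to hours were also listed, since several of them are induced with the expansion genes. Of the 11, 9 were matched and none passed between BCB classes of cumulus cells, as against 0.56% of all genes tested. Of the 9, 8 were higher in cumulus cells than in oocytes, as were 42.2% of all genes. DUSP1, a phosphatase that acts on MAP kinases, had medians of 188.1 (BCB+) and 103.0 (BCB-) TMM-scaled CPM in cumulus cells (log2 fold change 0.71, edgeR adjusted p = 0.191; 1.18 and 0.00785 with library totals alone). HSPA1A, an inducible heat shock protein, had medians of 105.2 and 637.9 (log2 fold change -2.26, edgeR adjusted p = 0.101). Among BCB- cumulus libraries its level went with the run. The 6 libraries of the run 86 to 91, all BCB-, lay between 610.9 and 4059. The other BCB- cumulus libraries lay between 58.0 and 134.0. BCB+ cumulus libraries lay between 67.1 and 498.8 in the run 65 to 74 and between 91.4 and 104.1 in the run 6 to 24. Within the run 65 to 74 the HSPA1A log2 fold change was 1.65 (edgeR adjusted p = 0.309). None of the 11 listed prostaglandin genes was matched.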

How the data were processed

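The authors trimmed paired-end reads, aligned them to ARS-UCD1.2 with HISAT2 2.1.0, removed duplicates and counted reads per Ensembl gene with featureCounts 1.6.0. The deposited values are raw counts of 27607 identifiers in 38 libraries, 1 table per compartment. Library preparation was primed on poly(A) tails with template switching. The labels gave each library's BCB class and complex number, and that number pairs both libraries of a complex.

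Genes with a CPM above 2 in at least 9 libraries were kept. Tests used edgeR 4.0.16 in R 4.3.3 (TMM, robust quasi-likelihood, Benjamini-Hochberg, FDR 0.01), and were tried on simulated data. Single values were tested by exact permutation of log2(CPM + 1), and relations with 100000 permutations, or all where n was under 10. DESeq2 1.42.0 gave alternatives. Intervals are at 95%, and counting errors are the inverse root of the count. Within a compartment, p-values measure the spread between complexes. The reported compartment and interaction fits took both libraries of a complex as independent, and only the replicate block used their pairing.

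Symbols came from supplementary tables that are partly chosen by results in these samples. VCAN was named through a table of co-expressed pairs. Named genes were the members, listed genes past the FDR or the 2 with the lowest p per list, markers, and the 2 genes most like VCAN, of which 1 is not reported here. Members and lists were chosen with earlier results of these data known. Gene positions, lengths and sequences were not used here.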

Additional observations from a re-analysis of the deposited data

Results flagged for a closer look

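VCAN in oocytes had a value far from its group in both classes. Among BCB+ oocytes complex 72 stood at 292.2 TMM-scaled CPM and the next at 106.9, and its share of the own cumulus level was 7.77% with the next at 2.45%. Among BCB- oocytes complex 88 stood at 195.7 and the next at 94.5. In cumulus cells, ERBB4 was far from the group in complex 19 of the BCB+ class (7.36 TMM-scaled CPM, next 2.68), and HSPA1A in complex 90 of the BCB- class (4059, next 2128). In all, 26 sets of values were looked at in this way and 5 held such a value. The rule's chance rate of about 1 in 20 supposes separate sets of normally distributed values. These were on a linear scale, and complex 72 entered with both its VCAN level and its share.

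The BCB difference in cumulus cells differed from that in oocytes for BMPR1B (interaction -1.83 on the log2 scale, edgeR adjusted p = 0.00192) and HBEGF (-2.32, 0.0046). Neither passed with the complex as a replicate block.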

How the results depend on the processing

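VCAN was not called between BCB classes of cumulus cells under any of the 12 alternatives, and its direction turned with library totals alone (0.14). The study's rule asks for both edgeR without TMM, which gave 0.14, and DESeq2, which gave -0.33. Leaving out 1 library gave -0.36 to -0.25 in cumulus cells and -0.0152 (turned, without BCB+ complex 72) to 0.85 in oocytes. Within the run 65 to 74, library totals alone turned the difference in cumulus cells to 0.72. VCAN was higher in cumulus cells than in oocytes under all 6 alternatives (6.16 with the replicate block), and the interaction stayed uncalled (-0.66 with the block).

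The count of 69 genes called in cumulus cells (5 higher, 64 lower in BCB+) was 1704 with library totals alone (1601 higher, 103 lower) and 365 with DESeq2. The adapted form of the study's rule gave 216, which is not the study's own count. The count was 164 with no filter, 115 with the run and 2 with the log10 total as a covariate, and 360 at an FDR of 0.05. It was 10 without complexes 66 and 68, an alternative chosen after seeing the data. Leaving out 1 library gave 6 (BCB+ complex 24) to 160 (BCB- complex 89), within 1.5 times of 69 only without BCB- complexes 87 and 90. In oocytes DESeq2 called 1 gene and every fit without 1 library called 0. The interaction called 258 genes, 702 at an FDR of 0.05, 643 with library totals alone (421 higher, 222 lower, against 7 and 251) and 2 with the replicate block, which moved no compartment call of VCAN. HSPA1A turned to 0.97 with the run as a covariate and to 1.65 within the run 65 to 74. ADAMTS5 and HBEGF passed without BCB- complexes 88 or 89, with the run as a covariate (edgeR adjusted p = 0.00256 and 0.00154), with DESeq2 and with library totals alone (0.00431 and 0.00457), and with the log10 total as a covariate neither did (0.696 and 0.448).

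Totals as low as 1103200 limit rare genes in BCB- cumulus libraries, and depth, run and BCB class move together in part.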
